A study of Mus musculus with 2 samples.

Results

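The miR-15/16 family was described in the aged mouse cortex as 7 microRNA (miRNA) genes at 4 places in the genome. The members were chosen by their annotated symbols and not by their levels, though earlier results of these data were known. Mir15a and Mir16-1 lie on chromosome 14, and Mir15b and Mir16-2 on chromosome 3. Mir195a and Mir497 lie on chromosome 11, and Mir322 on the X chromosome. The members are 7 of the 2202 miRNA genes listed in the deposited tables. All 7 had at least 10 reads in each library, a depth that 367 of the 2202 genes reached. The data are sequenced small RNA of less than 30 nt from the left cerebral cortex of adult B6CASTF1/J mice, a hybrid strain, at 18 to 20 months of age. The labels give 1 group with 2 biological replicates and no treatment, mutation or younger animals, so levels were compared between genes and between the 2 libraries. The replicates have separate tissue records that point to 1 donor record, so whether they are separate animals is unclear and the spread between them may be partly technical. The labels disagree on sex, which was not used.

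A miRNA is cut from a hairpin RNA, which has a 5p arm and a 3p arm, and it silences messenger RNAs that pair with bases 2 to 8 of its mature sequence, the seed. The miR-15/16 family is known for restraining the cell cycle, with D-type and E-type cyclins, CDK6 and the checkpoint kinases Wee1 and Chek1 among its established targets, and in human cells miR-15a and miR-16 also repress the survival factor BCL2. Loss of the human locus that matches Mir15a and Mir16-1 is a frequent lesion of chronic lymphocytic leukaemia. In the mouse heart miR-195 is induced after birth, when cardiomyocytes leave the cell cycle, and miR-322 is the mouse counterpart of human miR-424. Most cells of the adult cortex are neurons and glia that no longer divide.

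The mature 5p sequences are shown because the seed is what the 4 places have in common. They are printed 5′ to 3′ from RefSeq (GRCm38.p6), with the seed in capitals.

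miR-15a-5p: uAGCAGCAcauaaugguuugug
miR-15b-5p: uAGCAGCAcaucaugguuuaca
miR-16-5p: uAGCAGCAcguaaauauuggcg
miR-195a-5p: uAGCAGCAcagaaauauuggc
miR-497a-5p: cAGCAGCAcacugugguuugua
miR-322-5p: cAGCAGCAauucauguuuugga

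All 6 have the seed AGCAGCA, and they differ in what follows it. Over the first 21 positions, aligned without gaps, miR-16-5p and miR-195a-5p were identical at 19, and miR-15a-5p and miR-15b-5p at 18. The least alike were miR-16-5p and miR-497a-5p and also miR-195a-5p and miR-322-5p, at 11 positions each. The sequence groups therefore cut across the genomic pairs: miR-15a-5p shared 15 positions with its cluster partner miR-16-5p. The seed stood in 11 miRNA genes of the RefSeq table. The 4 that are not members, Mir195b, Mir6342, Mir6353 and Mir6419, had no sense read in either library, where a count of 0 allows a level of up to 1.26 CPM in replicate 1, against 0.676 CPM in replicate 2 (3 reads per library). CPM here are counts per 1000000 reads, over the reads on the strand of a miRNA gene (sense reads), and these limits cover counting error only.

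The mature sequence miR-16-5p is made from both Mir16-1 and Mir16-2. Their hairpins are printed from RefSeq (GRCm38.p6) because the counts cannot separate what they share; the longest shared run is in capitals.

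Mir16-1 (chromosome 14): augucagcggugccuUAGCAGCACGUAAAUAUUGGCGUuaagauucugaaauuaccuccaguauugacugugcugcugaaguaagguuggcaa
Mir16-2 (chromosome 3): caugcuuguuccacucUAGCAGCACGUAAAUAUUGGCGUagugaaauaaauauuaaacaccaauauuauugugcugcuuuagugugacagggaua

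The shared run is 23 bases long and holds all of miR-16-5p, so a read that lies within it cannot be assigned to 1 gene. The 3p arms differ, as the following sequences from RefSeq show with bases 2 to 8 in capitals.

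miR-16-1-3p: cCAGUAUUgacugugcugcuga
miR-16-2-3p: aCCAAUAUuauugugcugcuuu

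Of the 7 members, only Mir16-1 and Mir16-2 shared a word of 20 bases with an annotated transcript of another place, and each shared it with the other. Genes that overlap a member were left out of this search. Reads that map to several places are summed in the tables without a gene; there were 2863078 in replicate 1 and 5481355 in replicate 2, which is 35.6% and 44.8% of all reads in replicates 1 and 2. How many of these are miR-16-5p was not tested, and counts of Mir16-1 and Mir16-2 are uncertain for this reason. The tables count whole hairpins, so no arm has a level of its own. A small-RNA read spans a mature miRNA, so levels were not divided by hairpin length.

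The members lie in different genomic settings (mm10, GENCODE M21, coordinates counted from 1). Mir15a (ENSMUSG00000093007.1) lies at chromosome 14, 61632027 to 61632110, minus strand, in an intron of the noncoding transcript Dleu2. Mir16-1 (ENSMUSG00000092995.1) follows it at 61631880 to 61631972, after 54 bases, and overlaps an exon of Dleu2 in part. Mir15b (ENSMUSG00000065580.2) at chromosome 3, 69009772 to 69009835, plus strand, and Mir16-2 (ENSMUSG00000065606.1) at 69009902 to 69009996 are 66 bases apart in introns of Smc4, which encodes a subunit of condensin, the complex that compacts chromosomes for mitosis. Mir497 (ENSMUSG00000105220.1) at chromosome 11, 70234717 to 70234800, plus strand, and Mir195a (ENSMUSG00000065411.2) at 70235042 to 70235135 are 241 bases apart and lie within no annotated host gene. Mir322 (ENSMUSG00000065418.1) lies at chromosome X, 53054255 to 53054349, minus strand, likewise without a host gene. The hairpins were from 64 bases (Mir15b) to 95 bases long (Mir16-2 and Mir322), and their GC content ran from 36.8% in Mir16-2 to 61.9% in Mir497.

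Replicate 1 held 2381663 sense miRNA reads of 8041772 reads in all, and replicate 2 held 4436398 of 12239366. Lists of marker genes were summed in each library to set the tissue label beside the data. The neuron and cortex list of 11 genes summed to 90362 CPM in replicate 1, against 71516 CPM in replicate 2, of which Mir132 alone supplied 69646 and 43349 CPM. Without Mir132, a sum formed after its values were seen, it was 20716 CPM in replicate 1, against 28166 CPM in replicate 2. The other 10 genes, the 3 genes of the neuronal miR-124 among them, each share a word of 20 bases with another miRNA hairpin, so counts near 0, such as the 4 reads or fewer of each miR-124 gene, say nothing about the tissue. The liver marker Mir122 stood at 58.4 and 75.96 CPM in replicates 1 and 2, and the muscle list at 17.2 and 20.5 CPM. Of the 6 muscle genes 4 share such a word, among them Mir1a-1, Mir133a-1 and Mir133a-2, which were at 0, so this list cannot show that muscle miRNAs were low.

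Among reads assigned to 1 gene, Mir195a had the highest level of the family, and the genes of miR-16 had the lowest. Reads that map to both Mir16-1 and Mir16-2 are not in these counts, so the true place of the miR-16 genes in the order, and whether Mir195a leads it, was not tested; sums and shares of the family have the same limit. The 7 genes together held 11094 reads in replicate 1, or 0.466% of sense miRNA reads (95% exact binomial interval 0.457 to 0.475), and 40208 reads in replicate 2, or 0.906% (0.898 to 0.915). Their summed level was 4658 CPM in replicate 1, against 9063 CPM in replicate 2, a mean of 6861 ± 3115 CPM (SD, n = 2). For scale, a list of 9 genes was summed, the miR-17-92 cluster and its paralogs Mir106b, Mir93 and Mir25, whose miRNAs promote proliferation. It stood at 2398 CPM in replicate 1, against 2229 CPM in replicate 2. In the lead were the paralog Mir93 (1113 ± 156 CPM, SD, n = 2) and Mir92-1 (381 ± 145 CPM, SD, n = 2). Mir92-1 and Mir19b-1 of this list share a word of 20 bases with Mir92-2 and Mir19b-2, which are not in it. The sum lacks any reads that map to both hairpins of such a pair. The list of 6 Mir34 and Mir449 genes, whose miRNAs also restrain the cell cycle, summed to 3464 and 3332 CPM in replicates 1 and 2, most of it from Mir34a (3112 ± 90.6 CPM; SD, n = 2).

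Mir195a had 4618 reads in replicate 1 and 25569 in replicate 2. These counts gave 1939 CPM in replicate 1, against 5763 CPM in replicate 2, a mean of 3851 ± 2704 CPM (SD, n = 2). It ranked 45th by mean CPM among the 2202 genes, 66th in replicate 1 and 34th in replicate 2. No other member differed so much between the libraries, and even its lower value lay above every assigned value of the other 6 genes.

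Mir497, its partner on chromosome 11, had 2078 reads in replicate 1 and 5677 in replicate 2, which is 872.5 and 1280 CPM and a mean of 1076 ± 288 CPM (SD, n = 2). Mir15a, of the Dleu2 locus, had 2028 and 4662 reads in replicates 1 and 2, at 852 and 1051 CPM (951 ± 141, SD, n = 2). The ranges of these 2 genes over the libraries overlapped, and their log2 ratio, 0.04 in replicate 1 and 0.28 in replicate 2, averaged 0.16 ± 0.18 (SD, n = 2), so their order did not go beyond the spread.

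Mir322, the X-linked member, had 1122 reads in replicate 1 and 1701 in replicate 2, at 471 and 383 CPM (427 ± 62.0, SD, n = 2). Mir15b, of the Smc4 intron, had 568 and 1380 reads in replicates 1 and 2, at 238 and 311 CPM (275 ± 51.3, SD, n = 2). Both lay below Mir15a, and Mir322 was above Mir15b in each library, though by a log2 ratio of 0.98 in replicate 1 and 0.30 in replicate 2.

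Mir16-1 had 503 reads in replicate 1 and 861 in replicate 2, at 211 and 194 CPM (203 ± 12.1, SD, n = 2). Mir16-2 had 177 and 358 reads in replicates 1 and 2, at 74.3 and 80.7 CPM (77.5 ± 4.51, SD, n = 2). These genes of the shared mature sequence were last in both libraries, and they also had the smallest differences between libraries. Apart from Mir497 and Mir15a, the ranges of neighbours in the order did not overlap; the next smallest gap, of Mir15b over Mir16-1, was a log2 ratio of 0.43 ± 0.36 (SD, n = 2). With that exception of Mir497 and Mir15a set aside, each mean gap was larger than its SD, and the order of the 7 genes was the same in both libraries. The same order in both does not show that reads of different sequences were captured equally, which was not tested.

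**Figure D1:**
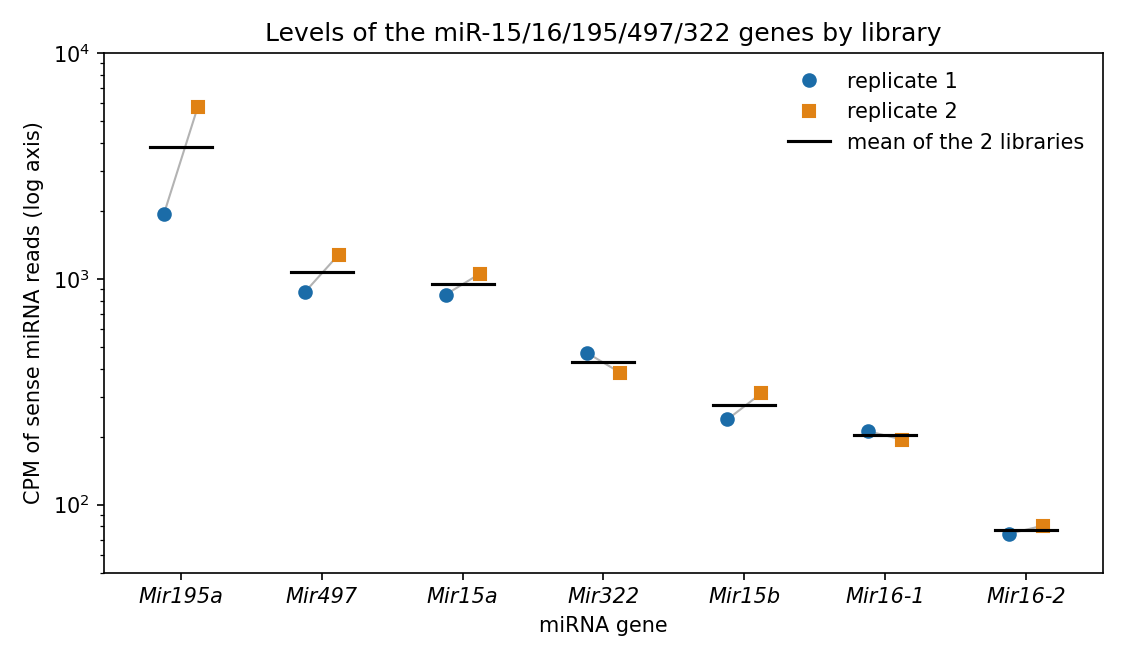
CPM of the 7 genes on a log axis, in order of their mean; circles are replicate 1, squares replicate 2 and bars the mean of the 2 libraries. Mir195a stands apart from the rest at 1939 CPM in replicate 1, against 5763 CPM in replicate 2, and Mir16-2 is lowest at 74.3 and 80.7 CPM.

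The libraries were compared gene by gene to see whether the members moved together. A two-sided exact binomial test, given library sizes scaled by TMM and Benjamini-Hochberg adjusted over all 472 genes with at least 10 reads in total, called 5 of the 7 members at a threshold of 0.05. The same test called 52.1% of all genes tested; it allows for counting noise alone and so passes abundant genes at small differences. Of the members called, 4 were lower in replicate 1 than in replicate 2, a direction in which 27.5% of all tested genes were called. Mir195a had a log2 ratio of replicate 1 over replicate 2 of -1.54 ± 0.02 (counting SE), with an adjusted p too small for the software to write. For Mir497 the ratio was -0.52 ± 0.04 (adjusted exact p = 2.98e-47), for Mir15b -0.35 ± 0.07 (1.57e-06) and for Mir15a -0.28 ± 0.04 (1.39e-12). Mir322 was called in the other direction, at 0.32 ± 0.06 (2.02e-08). Mir16-1, at 0.15 ± 0.08 with an adjusted binomial p of 0.122, and Mir16-2, at -0.09 ± 0.13 with an adjusted binomial p of 0.645, were not called; with DESeq2 size factors in place of TMM, Mir16-1 was (log2 ratio 0.22, adjusted exact p = 0.0143). Of the list of miR-17-92 and its paralogs, 7 genes were tested and 4 called, 3 of them higher in replicate 1 and 1, Mir92-1, lower. Of the Mir34 and Mir449 genes, 4 were tested and 2 called, both higher in replicate 1. The median log2 ratio was -0.28 over the 7 members and -0.07 over the 472 tested genes.

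When the spread between the libraries was allowed for, no member was called. edgeR's exact test with the common dispersion of these same libraries called 0.424% of the 472 genes, which is 2 genes, and 28 genes had an unadjusted p under 0.05. Mir195a was the only member among those 28, with an edgeR p of 0.0381 and an adjusted p of 0.803. The other 6 members had unadjusted edgeR p-values from 0.473 (Mir497) to 0.908 (Mir16-2). This test sets 1 library against 1 and gives no replicate evidence for a gene. Its dispersion was taken from the same difference that it tests, so few calls follow from its construction. The lack of calls therefore does not show that the members were equal. The absolute log2 ratio of Mir195a was exceeded by 25 of the 472 tested genes, and by 3 of the 95 genes with a mean of at least 1000 CPM, which were Mir21a, Mir99b and Mir222 (named after their values were seen). That of Mir497 was exceeded by 201 of the 472, and those of the other 5 members by 266 (Mir15b) to 425 (Mir16-2).

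**Figure D2:**
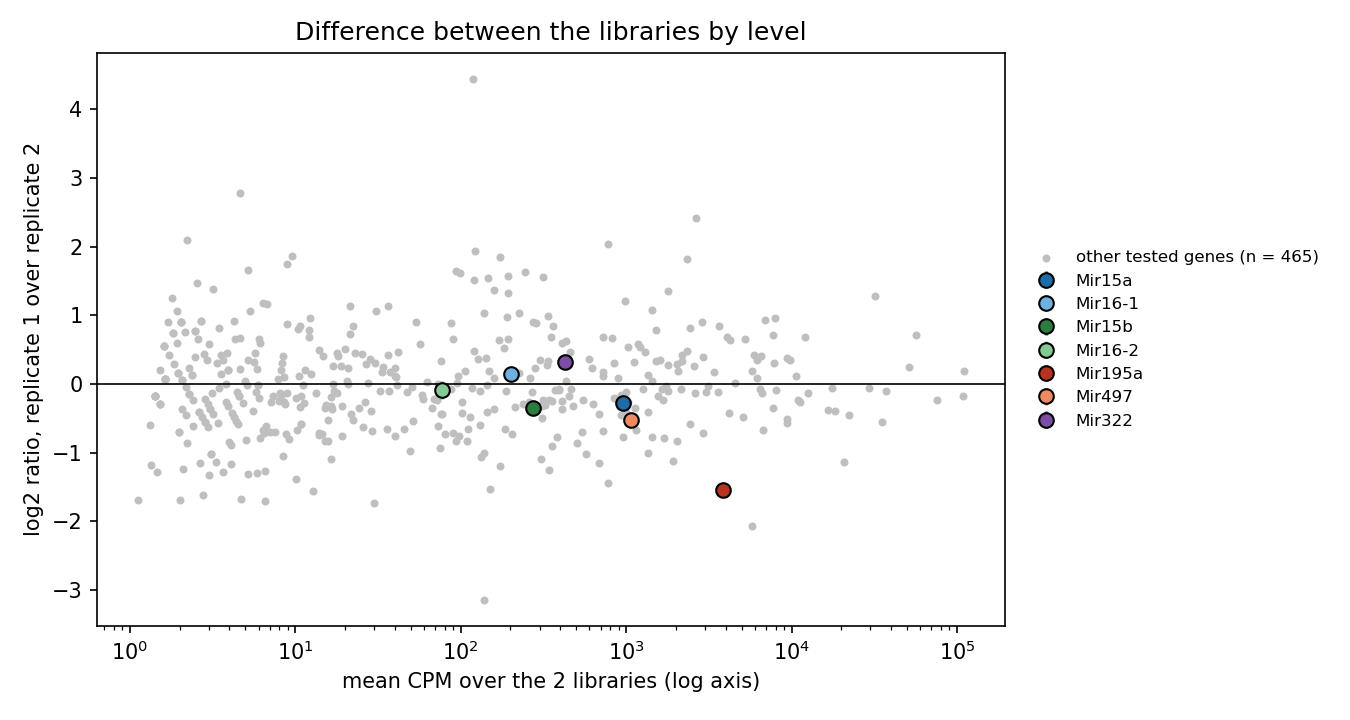
Log2 ratio of replicate 1 over replicate 2 (TMM-scaled CPM plus 1) against mean CPM on a log axis, for the 7 members in colour, with their counting SE, and the other 465 tested genes in grey. Mir195a lies at -1.54, below the other members, which lie between -0.52 and 0.32.

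The difference in the summed level came mostly from the chromosome 11 pair. Mir195a and Mir497 together stood at 2811 CPM in replicate 1, against 7043 CPM in replicate 2, a ratio of 0.399. Mir15a and Mir16-1 together stood at 1063 and 1245 CPM in replicates 1 and 2, a ratio of 0.854, and Mir15b and Mir16-2 at 313 and 392 CPM, a ratio of 0.798. For the whole family the ratio was 0.514. Without Mir195a, a sum formed after its values were seen, it was 0.824, from 2719 CPM in replicate 1, against 3300 CPM in replicate 2. Without both genes of chromosome 11 it was 0.914.

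The make-up of the family differed between the libraries in the share of Mir195a. It supplied 41.6% of the family's reads in replicate 1, with a 95% exact binomial interval of 40.7 to 42.55, against 63.6% in replicate 2 (63.1 to 64.1). Mir497 supplied 18.7% and 14.1% in replicates 1 and 2, and Mir15a 18.3% and 11.6%. Mir322 supplied 10.1% in replicate 1 and 4.23% in replicate 2, and Mir15b 5.12% and 3.43%. The genes of miR-16 gave the smallest shares, with Mir16-1 at 4.53% and 2.14% and Mir16-2 at 1.60% and 0.890% in replicates 1 and 2.

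**Figure D3:**
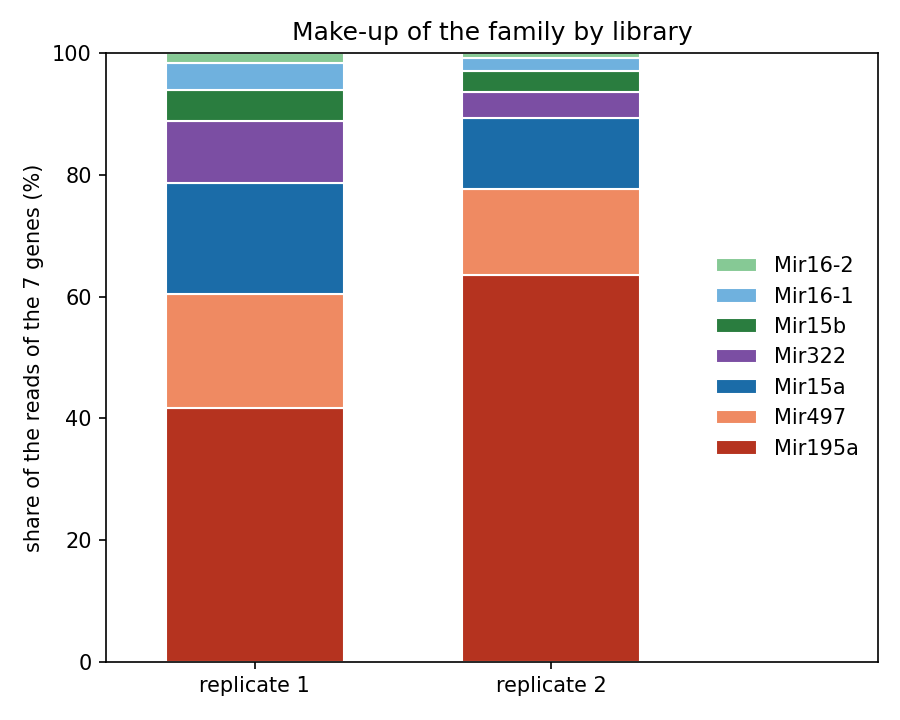
Share of the reads of the 7 genes (%) that each gene supplied in replicate 1 and replicate 2, stacked to 100%. The Mir195a segment is 41.6% in replicate 1 and 63.6% in replicate 2, and every other segment is smaller in replicate 2.

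Hairpins of 1 place in the genome were then compared within each library, which needs no scaling between libraries. The first-named hairpin of each pair took most of its pair's reads. Of the reads of Mir15a and Mir16-1, the share of Mir15a was 80.1% in replicate 1 (78.5 to 81.7, 95% exact binomial interval), against 84.4% in replicate 2 (83.4 to 85.4). Mir15b took 76.2% of the reads of Mir15b and Mir16-2 in replicate 1 (73.0 to 79.3) and 79.4% in replicate 2 (77.4 to 81.3). Mir195a took 68.97% of the reads of Mir195a and Mir497 in replicate 1 (67.8 to 70.1), against 81.8% in replicate 2 (81.4 to 82.3). The share differed between the libraries for the chromosome 11 pair (two-sided Fisher's exact test, p = 1.62e-114, adjusted over 3 pairs 4.86e-114) and, by a smaller step, for Mir15a and Mir16-1 (exact p = 2.51e-06, adjusted 3.76e-06). For Mir15b and Mir16-2 it did not pass (exact p = 0.0883, adjusted 0.0883). In all 3 pairs the share was lower in replicate 1. The test covers counting noise only and compares these 2 libraries. Both shares that involve a gene of miR-16 hold for the reads assigned to it, without the multimapping ones.

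**Figure D4:**
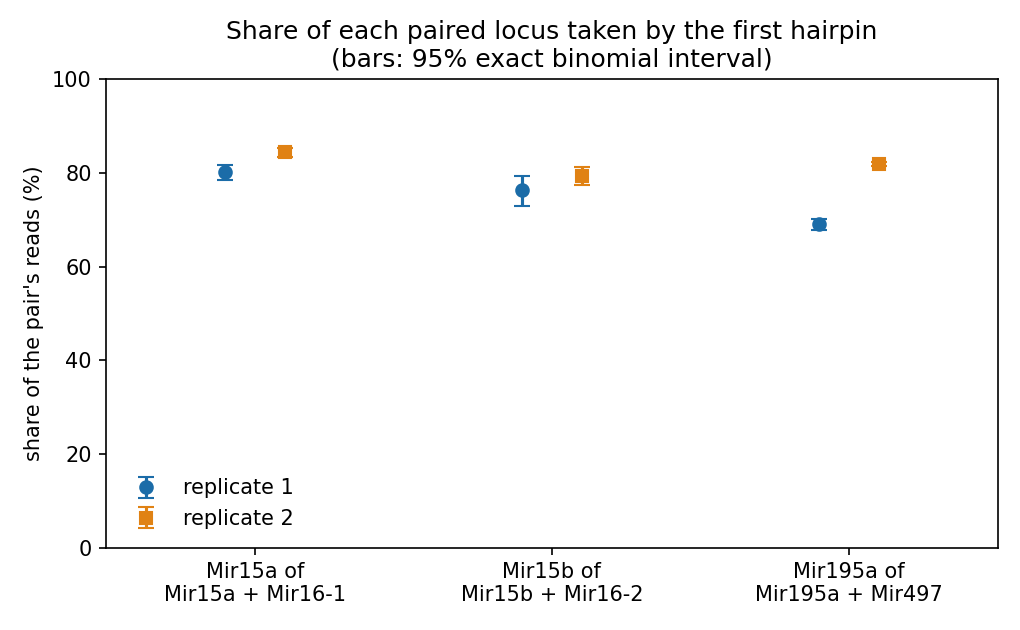
Share (%) of each pair's reads that the first-named hairpin took, in replicate 1 (circles) and replicate 2 (squares), with 95% exact binomial intervals. The intervals of the 2 libraries are apart for Mir195a (68.97% in replicate 1, 81.8% in replicate 2) and for Mir15a (80.1% and 84.4%), and overlap for Mir15b.

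The loci of chromosomes 14 and 3 encode the same pair of relatives, and their genes were set against each other. Mir15a had 3.57 reads per read of Mir15b in replicate 1 (3.25 to 3.93, 95% exact binomial interval), against 3.38 in replicate 2 (3.18 to 3.59). Mir16-1 had 2.84 reads per read of Mir16-2 in replicate 1 (2.39 to 3.39) and 2.41 in replicate 2 (2.12 to 2.73). The intervals of the 2 libraries overlapped for both ratios. The ratio of Mir16-1 to Mir16-2 holds only for reads assigned to 1 gene. Reads that lie within their shared run, which holds all of miR-16-5p, are not in it, so how the 2 genes compare was not tested. Mir195a, in contrast, had 2.28 reads per read of Mir15a in replicate 1 (2.16 to 2.40) and 5.48 in replicate 2 (5.32 to 5.66).

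Mir322 heads a cluster of miRNA genes on the X chromosome, and 6 other annotated miRNA genes lie within 10 kb of it on its strand. Mir503, 200 bases away, is the nearest in position. Its mature sequence is shown because its seed is the family seed but for the last base.

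miR-503-5p: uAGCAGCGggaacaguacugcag

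Mir503 had 31 reads in replicate 1 and 76 in replicate 2, at 13.0 and 17.1 CPM. Mir322 had 36.2 reads per read of Mir503 in replicate 1 (25.4 to 53.5, 95% exact binomial interval), against 22.4 in replicate 2 (17.8 to 28.5). Mir351, whose product belongs to the miR-125 seed family, had 215 reads in replicate 1 and 825 in replicate 2, at 90.3 and 186 CPM. It was called lower in replicate 1 by the binomial test (log2 ratio -1.01 ± 0.11, counting SE), while Mir322 was called higher there. Mir542 had 39 and 80 reads in replicates 1 and 2, at 16.4 and 18.0 CPM, and Mir450-1, Mir450-2 and Mir450b had at most 6 reads in either library.

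Mir497 has an antisense partner. Mir497b, annotated on the minus strand, covers all 84 bases of the Mir497 hairpin and had no sense read in either library. With both strands counted together, the deposited tables put 0 reads at Mir497, and at the other 6 members the same number as on the gene's strand.

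The genes nearest in level were found by the distance in log2(CPM + 1) over the 2 libraries, which measures level and ratio only. Of the 13 genes named 4 (Mir125b-1, Mir125b-2, Mir138-1 and Mir669c) share a word of 20 bases with another miRNA hairpin. Nearest to Mir195a were Mir138-1 (distance 0.67), at 2193 CPM in replicate 1, against 3675 CPM in replicate 2, and Mir99b (distance 0.71), at 2182 and 9306 CPM. Nearest to Mir15a were Mir323 (0.09) and Mir125b-1 (0.14), and to Mir497 Mir668 (0.15) and Mir125b-1 (0.15). Mir322 was closest to Mir125b-2 (0.16) and Mir490 (0.21), Mir15b to Mir664 (0.12) and Mir669c (0.17), Mir16-1 to Mir340 (0.20) and Mir488 (0.25), and Mir16-2 to Mir214 (0.02) and Mir483 (0.14).

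Markers of blood, vessels and glia were set beside the difference of Mir195a, which was lower in replicate 1. The erythroid list (Mir451a, Mir144, Mir486) summed to 97.8 CPM in replicate 1, against 67.4 CPM in replicate 2, and the leukocyte list of 4 genes to 1910 and 1870 CPM. Mir150 alone supplied 1701 and 1769 CPM of the leukocyte sums in replicates 1 and 2. The others were Mir142 at 149.9 and 49.4 CPM, Mir155 at 42.0 and 39.7 CPM and Mir223 at 16.4 and 11.5 CPM. The mural list (Mir143, Mir145a) summed to 10855 CPM in replicate 1, against 5719 CPM in replicate 2, and the endothelial Mir126a stood at 17007 and 18138 CPM. The oligodendrocyte list stood at 4678 and 3496 CPM and the astrocyte list at 37188 and 44940 CPM in replicates 1 and 2. The lists were mixed within. Of the neuron and cortex list, 5 of 8 tested genes were called, 4 lower in replicate 1 (as Mir195a was) and 1, Mir132, higher, and the median log2 ratio was -0.21. Among all 472 tested genes, the same binomial test called 52.1%, with 27.5% called lower in replicate 1. Of the astrocyte list, Mir29a and Mir23a were called lower and Mir26b higher. Of the oligodendrocyte list, Mir338 was called higher and Mir219a-2 lower. Mir23a, Mir219a-2 and the erythroid Mir486 each share a word of 20 bases with another miRNA hairpin (Mir23b, Mir219a-1 and Mir3107). Their counts, and the sums that hold them, lack any reads that map to both hairpins. Both mural genes were called higher in replicate 1, and Mir126a and Mir122 lower. Of the erythroid and leukocyte lists 1 gene each was called, Mir451a and Mir142, both higher in replicate 1. Only 2 of the 6 muscle genes, Mir206 and Mir1b, had enough reads to be tested. Neither was called by the binomial test or by edgeR's exact test, and neither had an unadjusted p under 0.05. The part of these markers in the difference of Mir195a was not tested. In whole tissue fewer cells of a type and less RNA per cell cannot be told apart.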

How the data were processed

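The authors deposited for each library a table of raw read counts per miRNA gene; per the notes deposited with the files, these rest on mm10 and GENCODE M21. No aligner is given in the sources used here. Each table opens with 4 summary lines, left out of library sizes and tests, followed by counts for both strands, the gene's strand and the other strand. The third column, the gene's strand, was used, as judged from the values. All 2202 identifiers matched GENCODE M21. Of the 7 members, 6 hairpins and the mature sequences of all 7 were found in RefSeq (GRCm38.p6), and the coordinates of the 6 hairpins equal those of GENCODE.

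CPM used the total of sense miRNA reads. Ratios used TMM sizes (edgeR 4.0.16, R 4.3.3; factors 0.9905 and 1.01 in replicates 1 and 2, from genes with at least 10 reads in total) and a pseudocount of 1 CPM. A quasi-likelihood test needs a second group, so each gene was tested by a two-sided exact binomial test across all 472 genes. The edgeR exact test used a common dispersion of 0.123, from a model with an intercept alone. "Counting SE" and intervals cover counting noise alone. Simulated data with known changes and counting noise alone served to check the binomial step. They cannot show how that step behaves under a wider spread between libraries. DESeq2 1.42.0 gave alternative size factors; scipy 1.17.1 gave the exact tests. Alternatives changed scaling, read minimum, strand, error model, pseudocount and word length. Named are the members, miRNA genes within 10 kb, genes sharing the seed or 1 base from it, the 2 genes nearest in level and the lists. Genes 1 base from the seed other than Mir503 (Mir29a, Mir29b-1, Mir29b-2, Mir29c, Mir34a and Mir21a) are not described. The members and lists were chosen with earlier results of these data known.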

Additional observations from a re-analysis of the deposited data

Results flagged for a closer look

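Reads stood in a column and on a summary line that the comparisons did not use. At Mir497b, the gene opposite Mir497, the column of the opposite strand held 2078 reads in replicate 1 and 5677 in replicate 2, above the 3 reads that a count of 0 allows. These are the same numbers as the sense reads of Mir497, whose hairpin lies wholly within Mir497b, so they add no reads to those already described. The line of multimapping reads held 2863078 reads in replicate 1 and 5481355 in replicate 2, which is 1.20 and 1.24 per assigned sense read. It names no gene, and its content was not tested.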

How the results depend on the processing

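The levels, ratios and calls were recomputed under other settings. The number of genes called between the libraries was 246, and 224 to 247 under other size factors, read minimums and both-strand counts, but 2 with edgeR's exact test. The number of members called was 5, and 4 to 6 under the same settings, but 0 with edgeR's exact test. No member's ratio changed direction in 41 recomputations, and 35 kept their side of the threshold. The exceptions were the 5 called members, which edgeR's test did not call, and Mir16-1, which was called with DESeq2 size factors (log2 ratio 0.22, adjusted p = 0.0143). With those factors 46.9% of called genes were lower in replicate 1, against 52.8% with TMM. The family sum of 6861 CPM became 2332 CPM when all reads of a table were its total, a larger total by construction. Without replicate 2, the mean of Mir195a (3851 CPM) became 1939 CPM and the sum of Mir195a and Mir497 (4927 CPM) became 2811 CPM; the other members and sums moved by less than 1.5 times. Of the member levels, 9 moved by more than the spread between libraries, 6 with all reads as the total and 3 with both strands counted. These 3 were Mir16-1 and Mir16-2, whose reads were unchanged over a smaller library total, and Mir497, which fell to 0. With both-strand counts Mir497 has no reads, so Mir195a took 100% of the pair's reads in each library. The share difference of Mir195a and Mir497 was then 0 percentage points by construction, and this setting cannot test it. Of 14 nearest genes, 14 were found again with a pseudocount of 0.5 or 5 CPM, but 3 or 4 in a single library. With overlapping genes left out, words of 18 bases were shared by 3 members (Mir497 joined) and words of 22 bases by 2. The mean neuron and cortex sum of 80939 CPM was 24441 CPM without Mir132, an alternative added after the data were seen. No between-library test can be made with 1 library left out.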
